A study of Mus musculus with 24 samples.

Results

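The genes that decide how a macrophage uses arginine were followed through 24 RNA sequencing libraries of bone-marrow-derived macrophages. They are 7 genes: Nos2, its cofactor gene Gch1, the importer gene Slc7a2, the recycling gene Ass1, the arginases Arg1 and Arg2, and Odc1. Members were chosen by gene symbol, as rows on a numbered chromosome, and each symbol matched 1 row among the 47372 genes in the tables. The cells came from 6 mice of the C57BL/6J strain aged 8 to 12 weeks. Of these, 3 lacked both liver X receptors, LXRα and LXRβ (labelled DKO), and 3 carried them (labelled LXR positive).

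Marrow cells of both genotypes were cultured with conditioned medium of L929, a fibroblast line that secretes the macrophage growth factor M-CSF. On day 5 they received KLA at 100 ng/ml, GW3965 at 1 µM or vehicle for 17 hours. Other cultures received acetylated low-density lipoprotein (AcLDL) at 50 µg/ml, for a duration not given in the sources used here. KLA, Kdo2-lipid A, is the part of bacterial lipopolysaccharide that TLR4 recognises. GW3965 is a synthetic agonist of the liver X receptors, and AcLDL is taken up by scavenger receptors and loads macrophages with cholesterol. Each of the 8 genotype and treatment groups held 3 libraries, each from a single mouse. All values below are the authors' normalized counts, that is, reads per gene divided by 1 size factor per library.

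Arginine enters macrophages through cationic amino acid transporters and then meets competing enzymes. Inducible nitric oxide synthase, the product of Nos2, turns it into nitric oxide and citrulline and needs tetrahydrobiopterin, whose synthesis starts with GTP cyclohydrolase, the product of Gch1. Argininosuccinate synthase, the product of Ass1, begins the return of citrulline to arginine. Arginases split arginine into urea and ornithine, in the cytosol (Arg1) or in mitochondria (Arg2), and ornithine decarboxylase (Odc1) turns ornithine into the first polyamine, putrescine. In mouse macrophages, Nos2 is known as a gene induced by bacterial ligands and Arg1 as one induced by interleukin-4, and agonists of the liver X receptors are known to repress inflammatory genes that include Nos2.

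The promoter table used here, from RefSeq, held 3 of the 7 members. Their upstream bases are shown because only these 3 had an entry, not for their response. Gch1 and Ass1 moved with KLA in the results that follow, and Odc1 did not pass the test. Each is the 250 bases before the RefSeq start, 5′ to 3′ on the strand of the gene, in GRCm38.p6. They lie at chr14:47189414-47189663 on the minus strand (Gch1), chr2:31470020-31470269 on the plus strand (Ass1) and chr12:17544623-17544872 on the plus strand (Odc1). The deposited gene start is the same as the RefSeq start for Gch1 and Odc1 and lies 63 bases upstream of it for Ass1. Capitals mark the motif matches described next.
Gch1: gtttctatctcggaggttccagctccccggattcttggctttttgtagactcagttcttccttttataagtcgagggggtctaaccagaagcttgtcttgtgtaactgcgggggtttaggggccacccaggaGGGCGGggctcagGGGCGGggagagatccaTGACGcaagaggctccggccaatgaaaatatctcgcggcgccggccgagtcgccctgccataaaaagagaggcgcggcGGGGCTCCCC
Ass1: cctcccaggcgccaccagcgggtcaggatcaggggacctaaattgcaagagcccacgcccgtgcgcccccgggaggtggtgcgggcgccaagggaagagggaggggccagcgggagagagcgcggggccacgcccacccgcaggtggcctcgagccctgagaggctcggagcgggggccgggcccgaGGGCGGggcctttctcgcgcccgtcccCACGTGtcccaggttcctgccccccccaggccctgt
Odc1: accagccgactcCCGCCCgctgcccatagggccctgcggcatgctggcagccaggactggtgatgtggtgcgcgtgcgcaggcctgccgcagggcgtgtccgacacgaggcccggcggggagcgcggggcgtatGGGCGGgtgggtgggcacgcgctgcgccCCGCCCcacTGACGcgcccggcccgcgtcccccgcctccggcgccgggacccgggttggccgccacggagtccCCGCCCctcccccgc

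Motifs were searched on both strands, a match on both at 1 place was counted once, and positions count back from the start. Gch1 held 1 match to the NF-kB consensus, beginning at position -10, and 7.25% of the 32851 promoters of the same length held one. Ass1 held 1 E-box (CACGTG) at position -36, present in 6.02% of promoters. The GC box (GGGCGG), present in 32.7% of promoters, was found 2 times in Gch1, 1 time in Ass1 and 4 times in Odc1. The core of a cyclic AMP response element (TGACG, in 17.8% of promoters) occurred 1 time in Gch1, at -88, and 1 time in Odc1, at -79. None of the 3 windows held AP-1 (TGANTCA), the whole cyclic AMP element (TGACGTCA), GAS (TTCNNNGAA), C/EBP (TTGCNNAA) or the nuclear receptor site AGGTCA. Those letters were present in 6.75%, 1.55%, 7.02%, 9.56% and 14.0% of promoters in the same order. These matches describe letters only. The windows of Gch1, Ass1 and Odc1 were 59.2%, 75.6% and 80.0% G or C, against a mean of 53.2% over all promoters.

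DKO libraries were deeper, with 9705391 to 27189081 reads, than LXR-positive libraries, with 6448579 to 17348717 reads, so genotype and depth cannot be told apart by grouping. Abca1, a cholesterol exporter and target of the receptors, had 16146 ± 1110 normalized counts with GW3965 and 15100.5 ± 1414 with vehicle in DKO cells. In LXR-positive cells it had 38559 ± 3148 with GW3965 and 8684 ± 477 with vehicle (SD, n = 3 each). The gene of LXRβ, Nr1h2, ranged from 274.8 to 399.5 in the 12 DKO libraries and from 437.8 to 820.6 in the 12 LXR-positive ones, while that of LXRα, Nr1h3, ranged from 123.0 to 751 and from 113.6 to 1267. These gene totals do not show which exons were read, so they do not check the deletions. KLA libraries carried Il1b at 5641 ± 1062 in DKO cells and 9758 ± 3468 in LXR-positive cells, against 54.4 ± 25.1 and 64.6 ± 21.5 under vehicle. All 9 macrophage markers were detected in every group.

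KLA raised 6 of the 7 genes in both genotypes. Nos2 changed most, followed by Arg1, Slc7a2, Ass1, Arg2 and Gch1 in DKO cells, while Slc7a2 had a larger estimate than Arg1 in LXR-positive cells. Odc1 did not pass the test in either. Differences were tested with limma-trend on log2(value + 1). P-values were adjusted by Benjamini-Hochberg over all genes tested, and called means an adjusted p under 0.05. Of 15957 genes tested, 14.0% were called higher with KLA in DKO cells and 16.2% in LXR-positive cells, and 10.9% were called higher in both. In every one of the 6 genes, each of the 6 KLA libraries lay above each of the 18 other libraries. The share of all genes that meet this rule was not computed. Under the weaker rule of KLA above vehicle within a genotype, without overlap, the share of all genes tested was 23.6% in DKO cells and 21.6% in LXR-positive cells. Outside KLA, the groups next to each other in mean level overlapped for every gene, with the exception of Ass1 in LXR-positive AcLDL libraries. The 18 libraries without KLA ran from 0 to 12.7 normalized counts for Nos2, 65.7 to 120.2 for Gch1, 47.7 to 166.7 for Slc7a2, 33.6 to 74.5 for Ass1, 1.46 to 23.4 for Arg1, 20.8 to 57.4 for Arg2 and 52.7 to 203.7 for Odc1. The median log2 fold change of the 7 genes was 4.13 in DKO cells and 4.02 in LXR-positive cells, against -0.0038 and -0.0028 over all genes tested. In bulk libraries such as these, more cells expressing a gene and more RNA per cell cannot be told apart. With KLA, 4 of 9 neutrophil and granulocyte precursor markers tested were called lower in DKO cells and 7 of 9 in LXR-positive cells, with median log2 fold changes of -1.20 and -1.65. Their summed level was 3329 to 7554 with KLA and 6404 to 9320 with vehicle in DKO cells, and 2241 to 2670 with KLA and 4593 to 4751 with vehicle in LXR-positive cells. Of 9 macrophage markers, 5 were called higher and 2 lower in DKO cells, and 4 higher and 3 lower in LXR-positive cells. The part of these shifts in the KLA results was not tested.

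**Figure D1:**
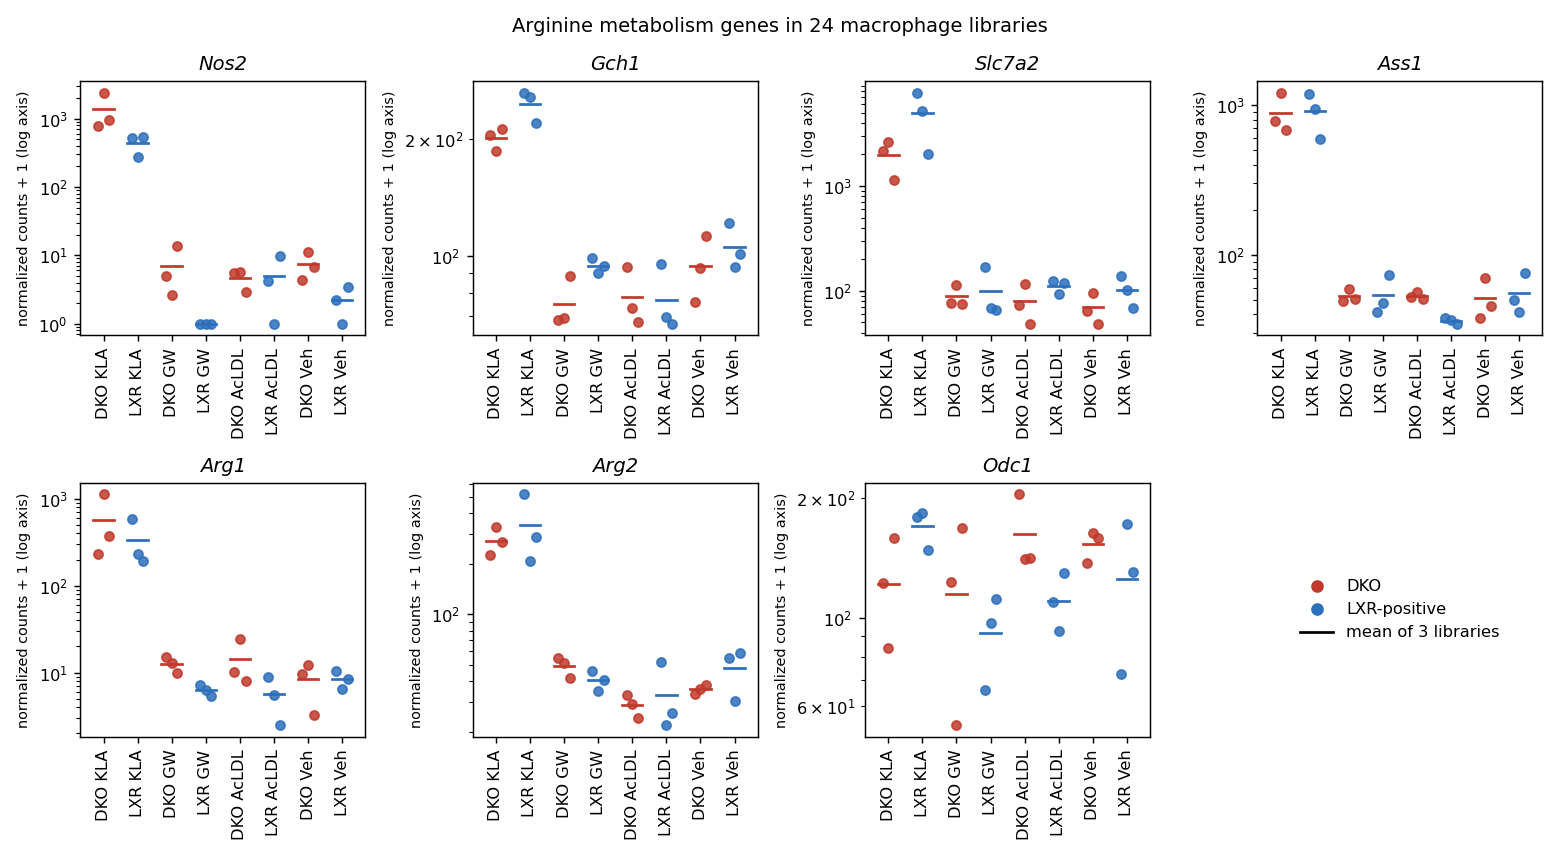
Normalized counts plus 1 (log axis, a scale of its own in each panel) of the 7 genes in all 24 libraries, with DKO libraries in red, LXR-positive libraries in blue and bars for the mean of 3. In every panel except Odc1 the 6 KLA libraries sit above the 18 others, and Nos2 sits at 0 in all 3 LXR-positive GW3965 libraries.

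Nos2 (ENSMUSG00000020826, chr11:78920787-78960254, plus strand, GRCm38) was near the limit of detection under vehicle and abundant with KLA. It had 786.5, 2395 and 940.9 normalized counts in DKO KLA libraries 1, 2 and 3, against 3.39, 10.1 and 5.86 in the DKO vehicle libraries of the same number. In LXR-positive cells it had 520.6, 274.0 and 538.9 with KLA, against 1.19, 0 and 2.44 with vehicle, which were 1, 0 and 2 reads. KLA and vehicle libraries did not overlap in either genotype. On the log2(value + 1) scale the change was 7.45 ± 0.53 in DKO cells (SE, limma adjusted p = 1.6e-06) and 7.76 ± 0.53 in LXR-positive cells (limma adjusted p = 1.1e-06), which ranked Nos2 4 of 15957 genes in each genotype. As a ratio of summed reads scaled for depth, KLA over vehicle was 204.9 in DKO cells (95% interval 148.4 to 291.3) and 439.3 in LXR-positive cells (149.9 to 2134). These intervals cover counting error only, and the second rests on 3 vehicle reads.

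Gch1 (ENSMUSG00000037580, chr14:47153895-47189413, minus strand), the cofactor gene, moved least of the 6. It had 203.4, 184.9 and 211.2 normalized counts in DKO KLA libraries, against 75.0, 92.0 and 111.4 in DKO vehicle libraries. LXR-positive libraries had 262.2, 256.1 and 218.6 with KLA and 120.2, 92.6 and 100.2 with vehicle. The groups did not overlap, and the log2 fold change was 1.11 ± 0.17 in DKO cells (limma adjusted p = 0.00049) and 1.23 ± 0.17 in LXR-positive cells (limma adjusted p = 0.0002). Of the other genes of tetrahydrobiopterin synthesis and recycling, 5 of 7 were tested, and 1 was called higher in DKO cells and 0 in LXR-positive cells. That gene was Pts, which acts directly after GTP cyclohydrolase, at 0.40 ± 0.12 in DKO cells (limma adjusted p = 0.034). It was called in 10 of 21 alternative analyses.

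Slc7a2 (ENSMUSG00000031596, chr8:40862396-40922308, plus strand) encodes the inducible cationic amino acid transporter CAT2. It had 2138, 2648 and 1148 normalized counts in DKO KLA libraries, against 63.9, 93.8 and 47.8 in DKO vehicle libraries. LXR-positive cells had 7753, 5214 and 2019 with KLA, against 136.8, 102.0 and 67.2 with vehicle. In each genotype and with either treatment the third library was the lowest, and KLA and vehicle did not overlap. The log2 fold change was 4.80 ± 0.46 in DKO cells (limma adjusted p = 1.7e-05) and 5.46 ± 0.46 in LXR-positive cells (limma adjusted p = 6.1e-06). Slc7a2 shares 635 exon bases with Gm26584 on the opposite strand, which averaged 14.4 normalized counts, and whether reads were counted by strand is not known here.

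Ass1 (ENSMUSG00000076441, chr2:31470207-31520672, plus strand) reached nearly the same level with KLA in both genotypes. It had 780.9, 1215 and 677.6 normalized counts in DKO KLA libraries, against 36.8, 69.4 and 44.2 in DKO vehicle libraries. In LXR-positive cells it had 1198, 944.9 and 592.0 with KLA, against 48.8, 40.5 and 74.5 with vehicle. The log2 fold change was 4.13 ± 0.33 in DKO cells (limma adjusted p = 3.6e-06) and 4.02 ± 0.33 in LXR-positive cells (limma adjusted p = 4.1e-06), without overlap of KLA and vehicle. Asl, which completes the return of citrulline to arginine, was called higher too, by 0.55 ± 0.18 in DKO cells (limma adjusted p = 0.044) and 0.72 ± 0.18 in LXR-positive cells (limma adjusted p = 0.01). The DKO call of Asl held in 10 of 21 alternatives. Of the 6 genes of citrulline recycling and the urea cycle besides Ass1 and the arginases, only Asl and Slc25a15, a mitochondrial ornithine carrier, passed the filter on low values. Slc25a15 had estimates of 0.26 ± 0.18 in DKO cells and 0.35 ± 0.18 in LXR-positive cells and was not called.

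Both arginases rose with KLA. Arg1 (ENSMUSG00000019987, chr10:24915208-24927470, minus strand) had 230.4, 1129 and 368.5 normalized counts in DKO KLA libraries, against 8.71, 11.3 and 2.25 in DKO vehicle libraries. In LXR-positive cells it had 580.6, 233.6 and 191.3 with KLA, against 9.52, 5.45 and 7.33 with vehicle. Each genotype had 1 KLA library well above the others, library 2 in DKO cells and library 1 in LXR-positive cells. The log2 fold change was 5.98 ± 0.62 in DKO cells (limma adjusted p = 2.9e-05) and 5.17 ± 0.62 in LXR-positive cells (limma adjusted p = 8e-05), the widest errors of the 7.

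Arg2 (ENSMUSG00000021125, chr12:79130777-79156301, plus strand), the mitochondrial arginase, had 224.0, 328.3 and 268.7 normalized counts in DKO KLA libraries, against 32.4, 35.0 and 37.0 in DKO vehicle libraries. LXR-positive cells had 516.6, 206.7 and 288.4 with KLA and 53.5, 29.6 and 57.4 with vehicle. The lowest KLA library lay above the highest vehicle library in both genotypes. The log2 fold change was 2.92 ± 0.32 in DKO cells (limma adjusted p = 4.3e-05) and 2.77 ± 0.32 in LXR-positive cells (limma adjusted p = 5.8e-05). Arg2 shares 285 exon bases with Vti1b on the opposite strand, a gene that averaged 602.6 normalized counts.

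Odc1 (ENSMUSG00000011179, chr12:17544873-17551502, plus strand), which begins polyamine synthesis, differed from the other 6 in that KLA and the other libraries overlapped. It had 121.6, 83.2 and 157.9 normalized counts in DKO KLA libraries, against 136.9, 162.6 and 158.2 in DKO vehicle libraries. In LXR-positive cells it had 178.7, 182.7 and 147.2 with KLA, against 71.4, 171.2 and 129.5 with vehicle. The log2 fold change was -0.38 ± 0.30 in DKO cells (95% interval -1.02 to 0.27, limma adjusted p = 0.39) and 0.53 ± 0.30 in LXR-positive cells (95% interval -0.11 to 1.17, limma adjusted p = 0.21). Every DKO pair of same-numbered libraries was lower with KLA, with log2 differences of -0.17, -0.96 and -0.0028, and every LXR-positive pair was higher, with 1.31, 0.09 and 0.18. The difference between these responses was -0.91 ± 0.42 (limma adjusted p = 0.86).

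**Figure D2:**
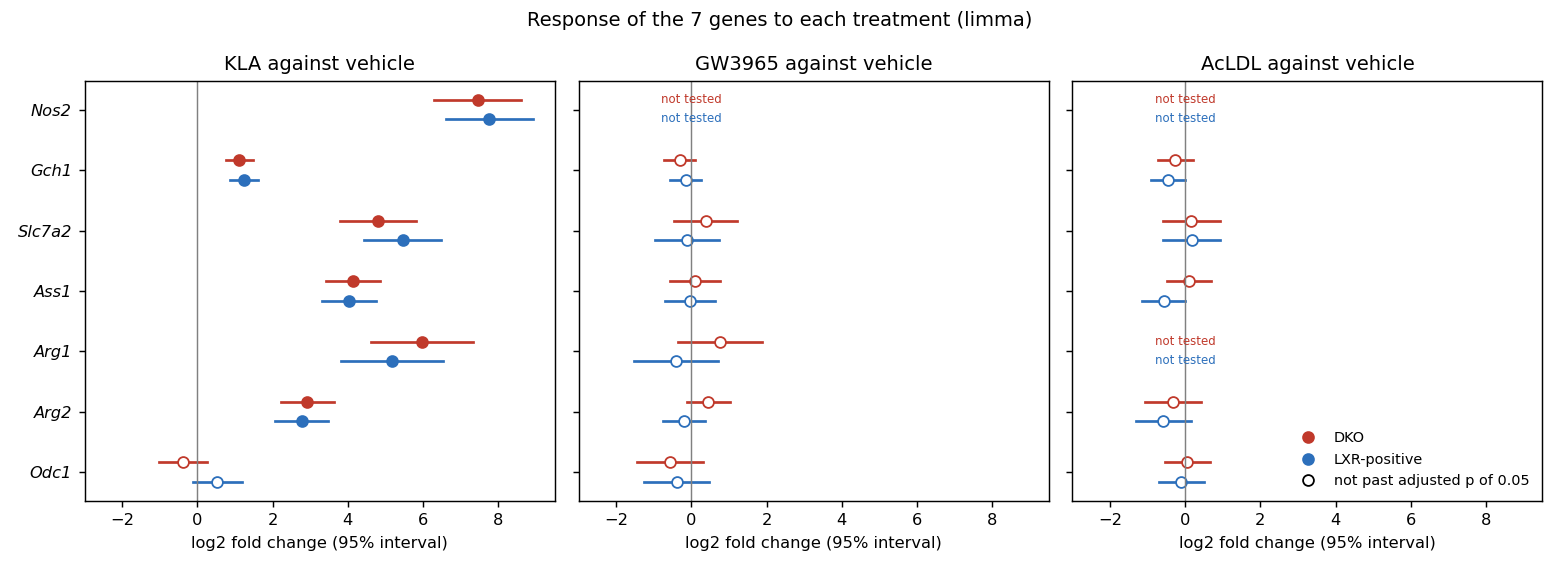
Log2 fold change against vehicle with its 95% interval (limma), DKO in red above LXR-positive in blue, filled where the adjusted p was under 0.05. With KLA 6 genes are filled in both genotypes, and with GW3965 or AcLDL no point is filled.

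Levels of different genes were compared per kilobase of annotated exon. In DKO KLA libraries Ass1 averaged 369 ± 118 normalized counts per kb, Nos2 311 ± 201, Arg1 258.5 ± 217, Slc7a2 216.5 ± 83.5, Arg2 191.6 ± 36.6, Odc1 35.5 ± 11.0 and Gch1 32.0 ± 2.16 (SD, n = 3). Neighbours in this order overlapped from Ass1 down to Arg2, while all 3 Ass1 values (280.7 to 503.3) lay above those of Arg2 (156.9 to 229.9). In LXR-positive KLA libraries the order was Slc7a2 with 547 ± 315, Ass1 with 378 ± 126, Arg2 with 236 ± 112.5, Arg1 with 150.4 ± 95.9, Nos2 with 100.7 ± 33.5, Odc1 with 49.8 ± 5.71 and Gch1 with 39.3 ± 3.78. There, neighbours overlapped from Slc7a2 down to Nos2. Odc1 and Gch1 were the lowest in both genotypes, and their order in DKO cells turned when the longest transcript was taken as the length (54.8 per kb for Odc1 and 57.0 per kb for Gch1). The order of Nos2 and Arg1 in DKO cells turned too, with 327.8 per kb for Nos2 and 390.0 per kb for Arg1.

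The balance of the synthase and the cytosolic arginase was read as a ratio of levels per kb within each library. Nos2 over Arg1 was 1.72, 1.07 and 1.29 in the 3 DKO KLA libraries, against 0.45, 0.59 and 1.42 in the 3 LXR-positive KLA libraries. The third LXR-positive library lay inside the DKO range. The ratio depended on the length used. With the longest transcript, Nos2 over Arg1 was 1.20, 0.75 and 0.90 in DKO KLA libraries. In LXR-positive KLA libraries it was then 0.32, 0.41 and 0.99. Arg1 over Arg2 was 0.66, 2.20 and 0.88 in DKO KLA libraries, against 0.72, 0.72 and 0.43 in LXR-positive KLA libraries. With the longest transcript it was 0.994, 3.325 and 1.326 in DKO and 1.086, 1.093 and 0.641 in LXR-positive KLA libraries. Slc7a2 over Nos2 was 1.31, 0.53 and 0.59 in DKO KLA libraries, against 7.19, 9.19 and 1.81 in LXR-positive KLA libraries. These values did not overlap, but none of the ratios was tested. The share of other gene pairs without overlap was not computed.

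**Figure D3:**
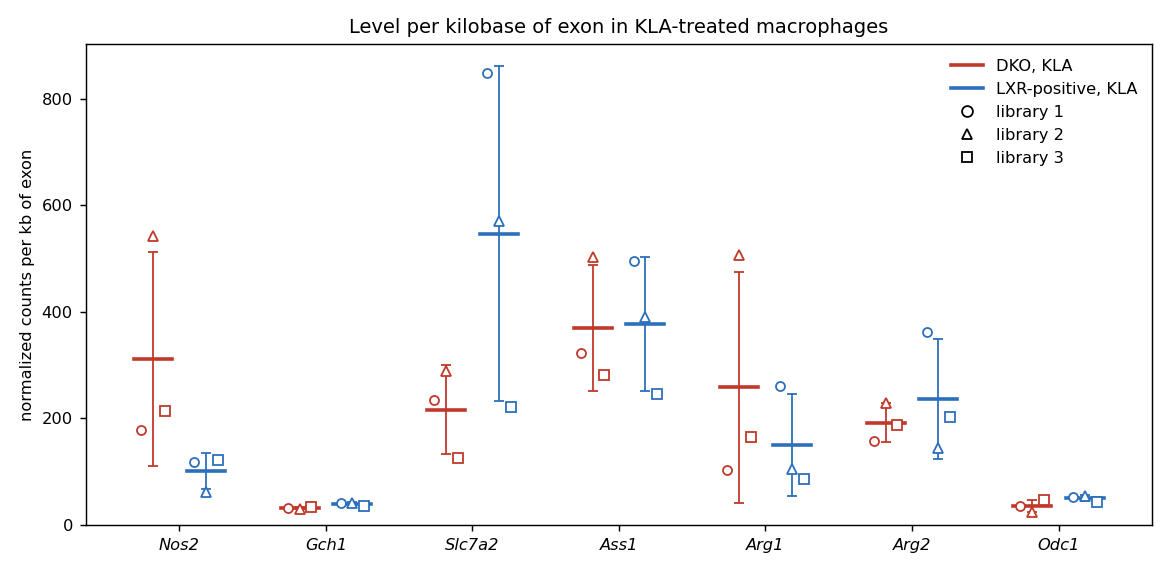
Normalized counts per kb of exon in KLA libraries, DKO in red and LXR-positive in blue, with 1 symbol per library number, bars for means and error bars for SD (n = 3). Library 2 is the highest DKO library for Nos2, Slc7a2, Ass1, Arg1 and Arg2, and the Slc7a2 mean is 216.5 in DKO against 547 in LXR-positive libraries.

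No member's response to KLA was called different between the genotypes, where 0.0689% of 15957 genes were called (limma) and 855 had an unadjusted p under 0.05. The estimated differences, DKO minus LXR-positive, were -0.32 ± 0.75 for Nos2, -0.12 ± 0.24 for Gch1, -0.65 ± 0.66 for Slc7a2, 0.11 ± 0.46 for Ass1, 0.81 ± 0.88 for Arg1 and 0.15 ± 0.45 for Arg2 (log2, SE). The 95% interval for Nos2 ran from -1.95 to 1.32 and that for Arg1 from -1.11 to 2.73, so differences within these limits were not excluded. The sign for Nos2 rests on vehicle values near 0 and turned to 0.47 with quantile normalization, 0.86 with a pseudocount of 8 and 0.43 with reads thinned to the smallest library. In the authors' deposited table for KLA the 7 genes had adjusted p-values of 0.876 or more for the same question.

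With KLA given to both, Nos2 was higher in DKO than in LXR-positive cells in all libraries, and Slc7a2 had a lower mean. Neither was called, and 0 of the 7 genes were, where 6.88% of genes were called and 3838 of 15957 had an unadjusted p under 0.05. For Nos2 the 786.5 to 2395 normalized counts of DKO libraries did not overlap the 274.0 to 538.9 of LXR-positive libraries, a pattern shared by 12.9% of genes in this direction. The log2 difference was 1.51 ± 0.53 (limma adjusted p = 0.1). Its adjusted p ranged from 0.037 to 0.34 over 20 alternatives and passed in 3 of them, at 0.037 with a pseudocount of 8, 0.042 with edgeR and 0.044 with DESeq2. Slc7a2 differed by -1.22 ± 0.46 (limma adjusted p = 0.13), with 1148 to 2648 in DKO libraries and 2019 to 7753 in LXR-positive libraries. The ranges overlapped through LXR-positive library 3, and the adjusted p was 0.048 without it.

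Gch1 also did not overlap, with 184.9 to 211.2 normalized counts in DKO KLA libraries and 218.6 to 262.2 in LXR-positive KLA libraries, as was true of 15.0% of genes in the lower direction. Its log2 difference was -0.29 ± 0.17 (limma adjusted p = 0.32). The differences of Ass1, Arg1, Arg2 and Odc1 were -0.02 ± 0.33, 0.63 ± 0.62, -0.21 ± 0.32 and -0.53 ± 0.30, and all 4 overlapped. The Arg1 estimate rests on DKO library 2 and was -0.02 without it.

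Summed neutrophil and granulocyte precursor markers were 3329, 7554 and 5326 in DKO KLA libraries, against 2241, 2670 and 2268 in LXR-positive KLA libraries. They were highest in DKO library 2, which was also the highest for Nos2, Slc7a2, Ass1, Arg1 and Arg2 and the lowest for Gch1 and Odc1. Among LXR-positive KLA libraries they were highest in library 2. That library was the lowest for Nos2 and Arg2, the highest for Odc1 and the middle one for Gch1, Slc7a2, Ass1 and Arg1. Of these markers, 3 of 9 tested (S100a9, Mpo and Ngp) were called higher in DKO cells. Summed stromal markers were 2215, 2224 and 299.3 in DKO KLA libraries, against 1149, 215.6 and 247.4 in LXR-positive KLA libraries. Called higher in DKO cells were also the lymphocyte marker Cd3d, by 1.57 ± 0.37, and the megakaryocyte marker Itga2b, by 1.36 ± 0.37 (limma adjusted p = 0.03 and 0.047). The summed lymphocyte markers were 41.0 to 54.6 in DKO and 12.0 to 30.0 in LXR-positive KLA libraries, and the erythroid and megakaryocyte markers 71.6 to 133.7 and 30.4 to 43.1. Summed macrophage markers were 295975 to 337388 in DKO KLA libraries and 376113 to 448789 in LXR-positive ones. Of those 9 macrophage markers 0 were called, and 5 had estimates above 0, with a median of 0.04, Cd68 highest at 0.60 and Lyz2 lowest at -0.56. Of the 10 neutrophil markers, 10 were detected in DKO and 9 in LXR-positive KLA libraries, and all 7 stromal markers in both. The part of these cells in the differences was not tested.

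GW3965 moved none of the members past the test. The fit held 6 of them, since Nos2 was under the filter on low values, and called 0 in either genotype. Over 16116 genes, 0.0062% were called in DKO cells and 0.267% in LXR-positive cells, with 940 and 988 genes at an unadjusted p under 0.05. The estimates ran from -0.56 (Odc1) to 0.77 (Arg1) in DKO cells and from -0.40 (Arg1) to -0.04 (Ass1) in LXR-positive cells. Arg2 had 53.8, 50.3 and 40.5 normalized counts in DKO GW3965 libraries, all above the 32.4 to 37.0 of DKO vehicle libraries, a pattern shared by 6.45% of genes. In LXR-positive cells Arg2 had 44.7, 33.9 and 39.8 with GW3965, within the range under vehicle. The difference in response was 0.65 ± 0.37 (limma adjusted p = 0.99), and 0 of 6 members were called for it, against 0.118% of genes.

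Nos2 was scarce without KLA. It had 6, 2 and 10 reads in DKO GW3965 libraries (3.98, 1.60 and 12.7 normalized counts), against 0 reads in all 3 LXR-positive GW3965 libraries. A count of 0 there allows up to 4.42 to 6.10 normalized counts per library (3 reads), so DKO libraries 1 and 2 lay within the limits of the LXR-positive ones. With all 24 libraries in 1 fit, Nos2 passed the filter only through the KLA libraries, and its spread was estimated together with theirs. In that fit the log2 difference of DKO from LXR-positive cells under GW3965 was 2.49 ± 0.71 (limma adjusted p = 0.027). In the fit of GW3965 and vehicle libraries with no filter, the same difference had an adjusted p of 0.059 (limma). Under vehicle it was 1.82 ± 0.71 in the fit of all 24 (limma adjusted p = 0.28), on 37 reads in all in DKO and 3 in LXR-positive libraries. Among the other 6 members, 0 were called between genotypes under GW3965, against 9.64% of genes, and 0 under vehicle, against 0.317%. Under GW3965, Arg1 had 13.9, 12.0 and 8.87 normalized counts in DKO libraries (21, 15 and 7 reads). In LXR-positive libraries it had 6.10, 5.35 and 4.42 (3 reads each). Arg1 entered this fit only through DKO libraries, since no LXR-positive library in it reached 10 normalized counts. The Arg1 values of DKO and LXR-positive libraries did not overlap, as in 14.5% of genes in the higher direction. Gch1 had 67.0 to 87.4 in DKO and 89.1 to 97.6 in LXR-positive libraries, without overlap in the other direction, as in 15.6% of genes.

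AcLDL likewise moved no member past the test. The fit held 5 members, without Nos2 and Arg1, and 0 were called in either genotype, against 0.125% of 16026 genes in DKO cells and 0.225% in LXR-positive cells, with 1004 and 1979 at an unadjusted p under 0.05. Ass1 had 51.3, 55.3 and 49.6 normalized counts in DKO AcLDL libraries, within the DKO vehicle range of 36.8 to 69.4. It had 36.7, 35.6 and 33.6 in LXR-positive AcLDL libraries, all below the 40.5 to 74.5 of LXR-positive vehicle libraries, as did 9.30% of genes. The log2 fold change in LXR-positive cells was -0.57 ± 0.26 (limma adjusted p = 0.41). In DKO AcLDL libraries Arg2 had 23.2 to 32.2, just below the 32.4 to 37.0 of DKO vehicle libraries, as did 5.67% of genes. Gch1 had 94.1, 68.3 and 65.7 in LXR-positive AcLDL libraries, against 92.6 to 120.2 under vehicle, a log2 fold change of -0.46 ± 0.21 (limma adjusted p = 0.4).

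Between genotypes under AcLDL, 0 of 5 members were called, against 8.61% of genes. Ass1 did not overlap, with 49.6 to 55.3 in DKO and 33.6 to 36.7 in LXR-positive libraries, nor did Odc1, with 139.5 to 203.7 in DKO and 92.0 to 128.5 in LXR-positive libraries. That was true of 15.0% of genes in the higher direction. The response to AcLDL was called different for 0 of 5 members, against 0.025% of genes.

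Beyond the 7, the pathway was followed in 61 genes of 7 lists, of which 52 were tested. KLA called 16 of them higher and 6 lower in DKO cells, and 19 higher and 7 lower in LXR-positive cells. Over all genes the shares were 14.0% and 11.1% in DKO cells and 16.2% and 12.4% in LXR-positive cells. Over 21 alternatives the higher count ran from 11 to 16 in DKO cells and from 15 to 20 in LXR-positive cells. The median log2 fold change of the 52 was 0.20 in DKO cells and 0.13 in LXR-positive cells. GW3965 and AcLDL called 0 of the 52 against vehicle in either genotype.

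Among cationic amino acid transporters, 3 of 6 tested were called higher in DKO cells and 4 higher and 1 lower in LXR-positive cells. Slc7a7 and Slc7a6, which pair with the heavy chain encoded by Slc3a2 to exchange cationic for neutral amino acids, rose by 0.90 ± 0.18 and 0.78 ± 0.16 in DKO cells (limma adjusted p = 0.0031 and 0.0033). In LXR-positive cells they rose by 0.82 ± 0.18 and 1.08 ± 0.16 (limma adjusted p = 0.0049 and 0.00031). Slc7a1, the constitutive transporter CAT1, was called in LXR-positive cells, at 1.13 ± 0.23 (limma adjusted p = 0.0032). In DKO cells its estimate was 0.20 ± 0.23 (limma adjusted p = 0.57). Its difference in response was -0.93 ± 0.33 and was not called (limma adjusted p = 0.86). For the difference in KLA response, 0 of the 52 genes were called by limma. Of the 20 alternatives, DESeq2 alone called 1 of them, Irf8, at 0.61 ± 0.16 (DESeq2 adjusted p = 0.037), against 0.60 ± 0.15 by limma (adjusted p = 0.56).

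Of 14 polyamine genes, 4 were called higher and 2 lower in DKO cells, and 7 higher and 2 lower in LXR-positive cells. Sat1, which acetylates polyamines for breakdown and export, fell to 1612 ± 144 normalized counts with KLA in DKO cells, against 3823 ± 601 under vehicle. In LXR-positive cells it fell to 1516 ± 17.4, against 4357 ± 239 (limma adjusted p = 1.2e-05 and 2.4e-06). Eif5a, the translation factor that carries the polyamine-derived residue hypusine, rose by 1.20 ± 0.14 in DKO cells and 1.09 ± 0.14 in LXR-positive cells (limma adjusted p = 6.6e-05 and 0.00012). Azin2, an antizyme inhibitor, rose by 1.14 ± 0.26 and 1.33 ± 0.26. Dhps and Dohh, the enzymes that make hypusine, were called higher in both genotypes, and the DKO call of Dhps held in 14 of 21 alternatives. Atp13a3, the other gene called lower, changed by -0.67 ± 0.10 in DKO cells and -0.46 ± 0.10 in LXR-positive cells (limma adjusted p = 0.00036 and 0.004).

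Of 12 transcription factors known to act on Nos2 or Arg1, 6 were called higher and 2 lower with KLA in DKO cells, and 4 higher and 3 lower in LXR-positive cells. Cebpb rose by 1.97 ± 0.11 in DKO cells and 1.75 ± 0.11 in LXR-positive cells (limma adjusted p = 2.6e-07 and 4e-07), and Hif1a by 1.64 ± 0.27 and 1.74 ± 0.27 (limma adjusted p = 0.00094 and 0.00056). Klf4 fell by 1.58 and 1.62 on the log2 scale (limma adjusted p = 0.0017 and 0.0012). Among nitric oxide synthases, proteins that interact with them and genes that clear their inhibitors, 0 of 5 tested were called higher. The 5 were Nos1, Nosip, Nostrin, Ddah1 and Ddah2. Nos1 was the only synthase gene among them, since Nos3 did not pass the filter on low values. Nostrin, which binds the endothelial synthase, was called lower in both genotypes. It had 156 ± 9.49 normalized counts with KLA and 337 ± 39.1 with vehicle in DKO cells, and 184 ± 41.2 with KLA and 347 ± 49.6 with vehicle in LXR-positive cells (limma adjusted p = 0.00079 and 0.0021). Ddah2, which degrades methylated arginines, fell to 2.85, 7.40 and 7.35 in DKO KLA libraries, against 38.7, 24.9 and 30.7 in DKO vehicle libraries (limma adjusted p = 0.0012). LXR-positive cells had 12.7 ± 4.49 with KLA and 19.1 ± 3.99 with vehicle, and the gene was not called there (log2 fold change -0.59 ± 0.40, limma adjusted p = 0.3).

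**Figure D4:**
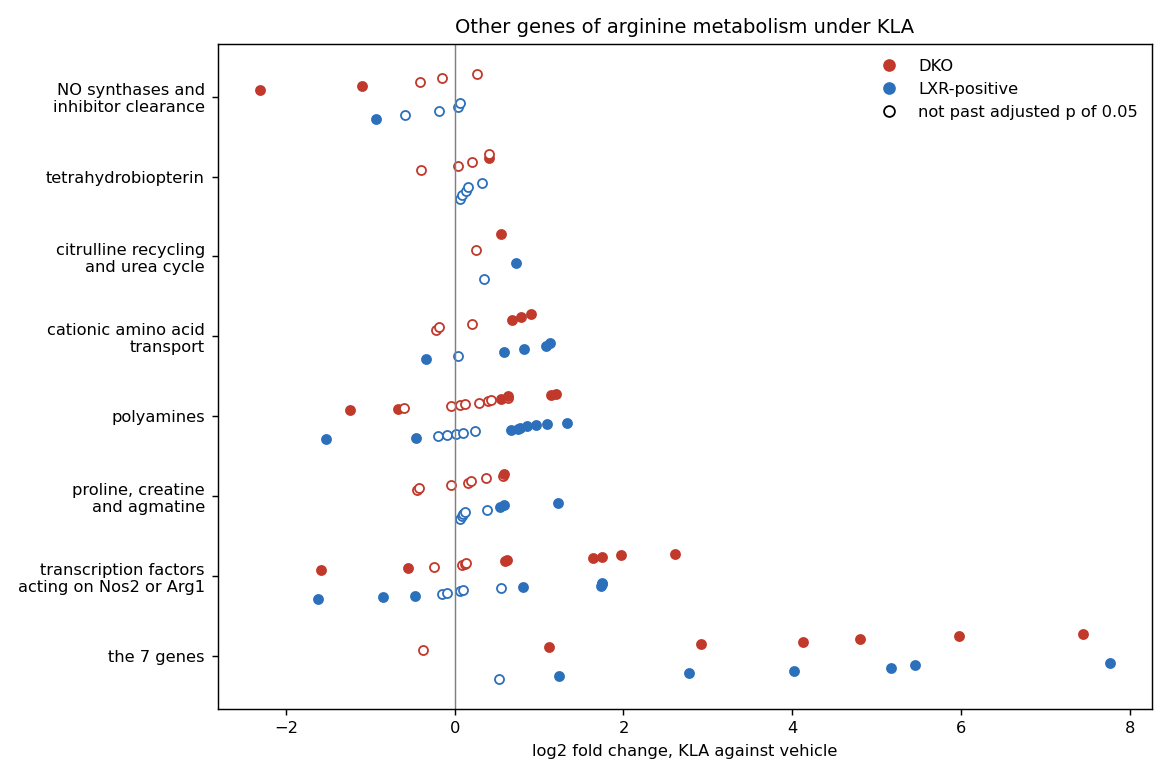
Log2 fold change with KLA of the tested genes of 7 pathway lists and of the 7 members, DKO in red above LXR-positive in blue, filled where the limma adjusted p was under 0.05. Most list genes lie within 2 units of 0, while 5 of the 7 members lie beyond 2.

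Between genotypes under KLA, 2 of the 52 list genes were called higher and 4 lower in DKO cells, against 3.01% and 3.87% of all genes. Irf1, an interferon regulatory factor that binds the Nos2 promoter, had 4507, 3361 and 3361 normalized counts in DKO libraries, against 1444, 1942 and 1764 in LXR-positive libraries, a log2 difference of 1.12 ± 0.21 (limma adjusted p = 0.015). Irf8, which partners Irf1, had 1628, 1615 and 1841 in DKO libraries, against 1152, 1122 and 1237 in LXR-positive libraries, a difference of 0.53 ± 0.10 (limma adjusted p = 0.017). The 3 DKO libraries lay above the 3 LXR-positive ones for both. Lower in DKO cells were the polyamine genes Amd1, which makes decarboxylated S-adenosylmethionine, by -0.99 ± 0.21, and Azin1, an antizyme inhibitor that stabilises ornithine decarboxylase, by -0.95 ± 0.20 (limma adjusted p = 0.022 and 0.019). Oat, which turns ornithine towards proline, differed by -0.56 ± 0.12 and Slc7a6 by -0.62 ± 0.16 (limma adjusted p = 0.021 and 0.038). All 6 differences had the same direction in all 20 alternatives, and the calls held in 9 (Slc7a6) to 18 of them. Without DKO KLA library 2, 0 of the 52 genes were called, and without DKO KLA library 1 or 3 the counts were 1 higher and 2 lower. Amd1 and Azin1 were also not called without LXR-positive KLA library 2, nor Slc7a6 without LXR-positive KLA library 1 or 3. The difference of Oat was not limited to KLA, since Oat was also called lower in DKO cells under GW3965, by -0.45 ± 0.09 (limma adjusted p = 0.015).

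The pattern over all 24 libraries was compared with that of 10610 genes with a mean of at least 50 normalized counts, by Pearson's r of log2(value + 1). All 24 points share the split between KLA and other libraries. The most alike were Gm43445 for Nos2 (r = 0.97), Nampt for Gch1 (0.96), Abcc4 for Slc7a2 (0.98), Acsl1 for Ass1 (0.99), Procr for Arg1 (0.97) and Tnfrsf1b for Arg2 (0.98). The next were Abcc5 and Selenow for Nos2, N4bp1 and Sod2 for Gch1, Tnfrsf1b and Napepld for Slc7a2, Adgb and Gpd2 for Ass1, Ptgs2 and Cers6 for Arg1, and Cybb and Pilra for Arg2. For Odc1 the highest value was 0.64, with Vps25, followed by Gcsh and Mrgbp. Among the members themselves, r ran from 0.85 (Nos2 with Gch1) to 0.96 (Ass1 with Arg1) without Odc1, and from 0.12 to 0.30 for pairs with Odc1.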

How the data were processed

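RNA was sequenced with a stranded total RNA kit, per the labels' protocols, from 24 libraries in 8 groups of 3. Per the submitters' processing notes the authors used kallisto and DESeq2 with GRCm38, without versions, and the sources used here do not give the strand setting. The deposited signal is normalized counts, each the reads of a gene over the size factor of its library. Divided by the smallest step of its library, 100% of the values lay within 0.01 of a whole read, and vehicle columns were the same in all 3 tables. The authors' deposited log2 fold changes and p-values of the interaction were only set beside the values computed here.

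The test was limma-trend (limma 3.58.1, R 4.3.3) on log2(value + 1), which understates the change of low genes. Each treatment was fitted with its vehicle libraries (12 libraries, 4 group means). Genes entered with at least 10 normalized counts in 3 libraries, p-values were adjusted by Benjamini-Hochberg over all of them, and 0.05 was the threshold. Genotypes under vehicle were compared in the GW3965 fit. edgeR 4.0.16 and DESeq2 1.42.0 on recovered reads were alternatives, with quantile normalization, a pseudocount of 8, no filter, 1 fit of all libraries, only the 6 libraries compared, thinned reads, each library left out and a block per mouse. The fits were tested on simulated data. Levels per kb used GENCODE M21 exons.

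Libraries with the same number within a genotype were taken as 1 mouse, since column names carry a number and the series' design text gives 6 mice by 4 treatments. Deviations from group means of same-numbered libraries correlated at a median r of 0.266 (36 pairs, -0.00507 to 0.506, 35 over 0.1). The block changed no call of a member. No pairing across genotypes is given.

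The members and lists were chosen with earlier results of these data known. The text names the 7 members, up to 4 called genes of largest change per list and comparison, the 3 most alike genes per member, and check genes (Abca1, Il1b). Nr1h2, Nr1h3, the overlapping genes, Slc25a15 and Dhps and Dohh were added after their values were seen. Where a symbol had more than 1 row, the row with the higher mean was taken for list genes. Intervals and limits from reads cover counting error only.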

Additional observations from a re-analysis of the deposited data

Results flagged for a closer look

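The log2 differences of Arg1 between GW3965 and vehicle had opposite signs in the 2 genotypes, but Arg1 was called in neither (limma adjusted p = 0.92 in each). They were 0.62, 0.08 and 1.60 in the 3 DKO mice and -0.57, -0.02 and -0.62 in the 3 LXR-positive mice, so 1 mouse of each genotype was next to 0. The difference in response was 1.17 ± 0.73 (SE, limma adjusted p = 0.99), on 7 to 21 reads per DKO GW3965 library and 3 reads in each LXR-positive one.

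Between AcLDL and vehicle, the log2 differences of Arg1 were 0.07, 0.99 and 1.31 in DKO mice and -0.23, -0.24 and -1.76 in LXR-positive mice, again of opposite sign and called in neither genotype (limma without the filter, adjusted p = 0.93 and 0.73). The difference in response was 1.53 ± 0.92 in the fit without the filter on low values (limma adjusted p = 0.93), on 11 to 30 reads per DKO AcLDL library and 1 to 5 reads per LXR-positive one. The GW3965 and AcLDL values share their vehicle libraries.

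The log2 differences of Odc1 between KLA and vehicle were below 0 in all 3 DKO mice and above 0 in all 3 LXR-positive mice, called in neither genotype, and the difference in response was -0.91 ± 0.42 (limma adjusted p = 0.86). 1 of the 3 DKO differences, -0.0028, was next to 0.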

How the results depend on the processing

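The calls of the 6 genes that rose with KLA held in both genotypes in all 21 alternatives, and Odc1 was called in 0 of 21. Between genotypes under KLA, 1 member was called, in place of 0, with a pseudocount of 8, edgeR or DESeq2 (Nos2 each time), and leaving out 1 library gave 0 to 1 (Slc7a2, without LXR-positive KLA library 3). Under GW3965, 1 fit of all 24 libraries called 1 member, Nos2. The main fit did not hold Nos2, which passed the filter in the fit of all 24 only through the KLA libraries. The cause of the other changes was not tested.

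The difference in KLA response of Nos2 turned positive, at 0.47 with quantile normalization, 0.86 with a pseudocount of 8 and 0.43 with thinned reads, and ran from -0.81 to 0.17 with 1 library left out. That of Ass1 was -0.026 with thinned reads and ran from -0.18 to 0.36, that of Arg2 from -0.15 to 0.51 and that of Gch1 from -0.26 to 0.0229. Between genotypes under KLA, Ass1 was 0.0538 with quantile normalization and 0.0407 with thinned reads and ran from -0.30 to 0.21, Arg2 from -0.51 to 0.15 and Arg1 from -0.023 to 1.12, all uncalled in the main analysis.

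With the mouse as a replicate block, 6 of 7 members were called with KLA in each genotype and 0 for the difference in response, and it changed no other call of a member. Over all genes, calls between genotypes under KLA were 1097 and ranged from 128 to 1851. Calls for the difference in KLA response were 11, against 20 with the block, and ranged from 5 to 49. With AcLDL they were 20 in DKO cells (15 to 82) and 36 in LXR-positive cells (10 to 285), and between genotypes under vehicle 51 (10 to 300), under GW3965 1553 (452 to 2110) and under AcLDL 1379 (123 to 1860). With GW3965 they were 1 in DKO cells (0 to 26) and 43 in LXR-positive cells (36 to 87), and 19 (13 to 55) and 4 (1 to 13) for the differences in response to GW3965 and AcLDL. Depth limits Nos2 and Arg1 without KLA, where several libraries held 0 to 10 reads.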

Other observations

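Some pathway genes outside the 7 differed between genotypes without KLA. Slc7a7, which with the chain encoded by Slc3a2 exports cationic amino acids, had 236 ± 45.8 normalized counts in DKO and 454 ± 56.5 in LXR-positive GW3965 libraries (SD, n = 3 each), and 195 ± 31.1 and 345.5 ± 58.5 with AcLDL. The log2 differences were -0.95 ± 0.16 and -0.82 ± 0.16 (SE, limma adjusted p = 0.0067 and 0.015). The first held in all 20 alternatives and the second in 17. Under vehicle it had 216.5 ± 23.6 in DKO and 297 ± 34.1 in LXR-positive libraries and was not called. Rel, a subunit of NF-kB, was lower in DKO cells under both, by -0.53 ± 0.10 and -0.37 ± 0.10 (limma adjusted p = 0.0086 and 0.039), and the second held in 10 of 20 alternatives. Oat was lower in DKO cells under GW3965, by -0.45 ± 0.09 (limma adjusted p = 0.015), a call that held in 18 of 20 alternatives. With AcLDL, Oat had 627 ± 17.5 normalized counts in DKO and 754 ± 99.9 in LXR-positive libraries. Under vehicle its values were 616 ± 44.8 and 698 ± 19.4, and it was called in neither of these 2 comparisons. In all, 1 of the 52 list genes was called higher and 3 lower under GW3965, against 9.64% of all genes called in either direction, and 0 higher and 3 lower under AcLDL, against 8.61%. In the same comparisons 6 of 9 neutrophil and granulocyte precursor markers were called higher in DKO cells, with medians of 1.03 under GW3965 and 1.00 under AcLDL. Their summed level was 7981 to 11785 in DKO and 3895 to 6454 in LXR-positive GW3965 libraries, and 6308 to 9134 in DKO and 3565 to 4214 in LXR-positive AcLDL libraries. Of 9 macrophage markers, 1 was called higher and 2 lower under GW3965, and 1 higher and 3 lower under AcLDL. The part of these shifts in the differences of Slc7a7, Rel and Oat was not tested.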
